A study of Mus with 8 samples.

Results

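RAW264 cells in 4 groups were profiled on 8 arrays, and the 4 arrays taken after 6 h of LPS are described here, 2 of BTEE-treated cells and 2 of control cells. RAW264 is a mouse macrophage-like cell line. BTEE is an ethanol extract of the microalga Botryococcus terribilis TEPMO-26. BTEE-treated cells were kept for 24 h with 0.2 mg/mL of the extract and then for 6 h with LPS at 1 ng/mL, and control cells received the same LPS after culture in medium without the extract. LPS, a component of the outer membrane of Gram-negative bacteria, was thus present in all 8 samples. The other 4 arrays, 2 of BTEE-treated and 2 of control cells after 17 h of LPS, entered the fit and serve here as the comparison in time. RNA was hybridised to Clariom S mouse arrays, which carry 1 probe set for most genes. Whether duplicate arrays stand for separate cultures is not stated, and the p-values measure only how far duplicates differ, which may be technical. The sources name no ethanol control for the arrays, so the extract and its solvent cannot be told apart, and the dose on the arrays lay above those stated to be without significant cytotoxicity.

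The endoplasmic reticulum (ER) folds the proteins that a cell secretes or displays on its surface. When unfolded proteins gather there, the sensors IRE1 (gene Ern1), PERK (Eif2ak3) and ATF6 switch on the unfolded protein response, which raises chaperones and the machinery that takes misfolded proteins out for degradation. Other stress programs have other regulators, such as ATF4 for shortage of amino acids, HSF1 for heat and unfolded protein in the cytosol, NRF2 for oxidants and electrophiles, HIF1 for low oxygen and p53 for DNA damage. Macrophages activated by LPS make large amounts of secreted protein, express inflammatory caspases, and under other signals can fuse into giant cells or osteoclasts.

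Each array is given as log2 signal, on which a step of 1 is a 2-fold difference, and signals are compared between groups and not between genes. A gene rose or fell, in the terms used here, where limma's moderated test gave a p-value under 0.05 after Benjamini-Hochberg adjustment over all 21154 gene symbols. At 6 h, 3321 symbols fell and 3059 rose, or 15.7% and 14.5% of all symbols, and with any 1 of the 4 arrays left out 1836 to 2107 fell and 1719 to 1846 rose. Most counts within gene lists shrank too, and for most lists the range without any 1 array is given beside them. At an unadjusted p under 0.05 with a fold over 1.5, the rule for differentially expressed genes (DEGs), 1138 symbols were lower and 1066 higher (5.38% and 5.04%). The median change of the symbols called was 0.48 on the log2 scale in either direction, and 84 of those that fell and 65 of those that rose had a fold over 2 and a mean signal of at least 6 over the 8 arrays. Among the 9387 symbols with such a signal 20.3% fell and 16.5% rose. BTEE and control arrays correlated across genes with r between 0.9942 and 0.9943, and arrays of one group with r between 0.9984 and 0.9985. Of 1438 olfactory, taste and other sensory receptor genes, which macrophages are not known to use and which had a median log2 signal of 3.62, 12.4% fell and 8.69% rose. Their changes had an SD of 0.379 where the spread between duplicate arrays gave an expected 0.205. When this excess, called the sensory gene spread below, was included in every gene's error, 30 symbols fell and 22 rose, so most calls given here rest on the spread between duplicates alone.

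Macrophage genes read high, with a median log2 signal of 15.15 over 19 markers. Markers of B cells, neutrophils and epithelial cells had medians of 3.64, 3.49 and 3.50, and those of T cells and fibroblasts 4.48 and 4.64. The fibroblast marker Col1a1 read 5.15 and 5.10 with BTEE and 6.14 and 6.28 in control cells. Of the macrophage markers 8 fell and 1 rose, 42.1% and 5.26% beside 15.7% and 14.5% of all symbols. Among symbols with a mean signal of at least 6 these shares were 20.3% and 16.5%. The mean linear signal of the macrophage markers was 75750 to 75840 on the BTEE arrays and 81800 to 82110 on the control arrays. Of 11 B cell markers 0 rose and 0 fell in limma, with 1 higher and 2 lower at an unadjusted p under 0.05, and of 9 T cell, 10 neutrophil, 8 fibroblast and 10 epithelial markers no more than 2 of a list rose and no more than 1 fell. Without any 1 array 7 macrophage markers fell and 1 rose, and in the other lists 0 to 2 rose and 0 to 2 fell. In bulk RNA, a lower level in every cell and a smaller share of cells with the transcript cannot be told apart.

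Genes for protein folding in the ER rose in BTEE-treated cells, and their list had the highest share of genes that rose among 18 stress lists. Of 60 measured genes of ER chaperones and the unfolded protein response, 31 rose, 4 fell and 25 did not pass the test, or 51.7% and 6.67% against 14.5% and 15.7% of all symbols. The median change of the list was 0.26 on the log2 scale, beside 0.00 for all symbols and -0.02 for the symbols with a mean signal of at least 6. Both BTEE arrays lay above both control arrays for 40 of the 60 genes and below them for 10, where the same held for 32.8% and 34.5% of all symbols. Without any 1 of the 4 arrays, 22 to 24 of the list rose and 0 to 1 fell. With the sensory gene spread included in limma's error, 0 of the 60 passed after adjustment (0.104% of all symbols passed upward and 0.142% downward). At an unadjusted p under 0.05 in that setting 11 were higher and 0 lower, beside 3.31% and 3.49% of all symbols.

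Among 13 ER chaperones and cochaperones, 8 rose and 0 fell in limma, and 0 were lower at an unadjusted p under 0.05. The share of 61.5% upward stood beside 14.5% of all symbols and 16.5% of those with a mean signal of at least 6. Creld2, an ER protein of the unfolded protein response, read 13.13 and 13.03 with BTEE and 12.02 and 11.98 in control cells. The duplicates lay close together and the groups did not overlap, and the log2 fold change was 1.08 (SE 0.08, adjusted p = 7.04e-04). Sdf2l1, which works with the BiP chaperone, read 12.67 and 12.66 with BTEE and 11.77 and 11.73 without (log2 fold change 0.91, SE 0.08, adjusted p = 8.42e-04). The BiP cochaperones Dnajb11 and Dnajc3 rose by 0.71 and 0.52. BiP itself (Hspa5), with a signal near the top of the range of these arrays, read 18.07 and 18.12 with BTEE and 17.61 and 17.68 in control cells. This was a separation of the groups by a smaller step than for its cochaperones Dnajb11 and Sdf2l1, and the rise was 0.45 (SE 0.07, adjusted p = 0.00459). Hyou1, the exchange factor of BiP, rose by 0.41, and the ER member of the HSP90 family Hsp90b1 by 0.39. The lectin chaperone Canx rose by 0.26 (adjusted p = 0.0479), while its relative Calr had 0.18 (adjusted p = 0.139) and Dnajb9 0.06 (adjusted p = 0.623).

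**Figure D1:**
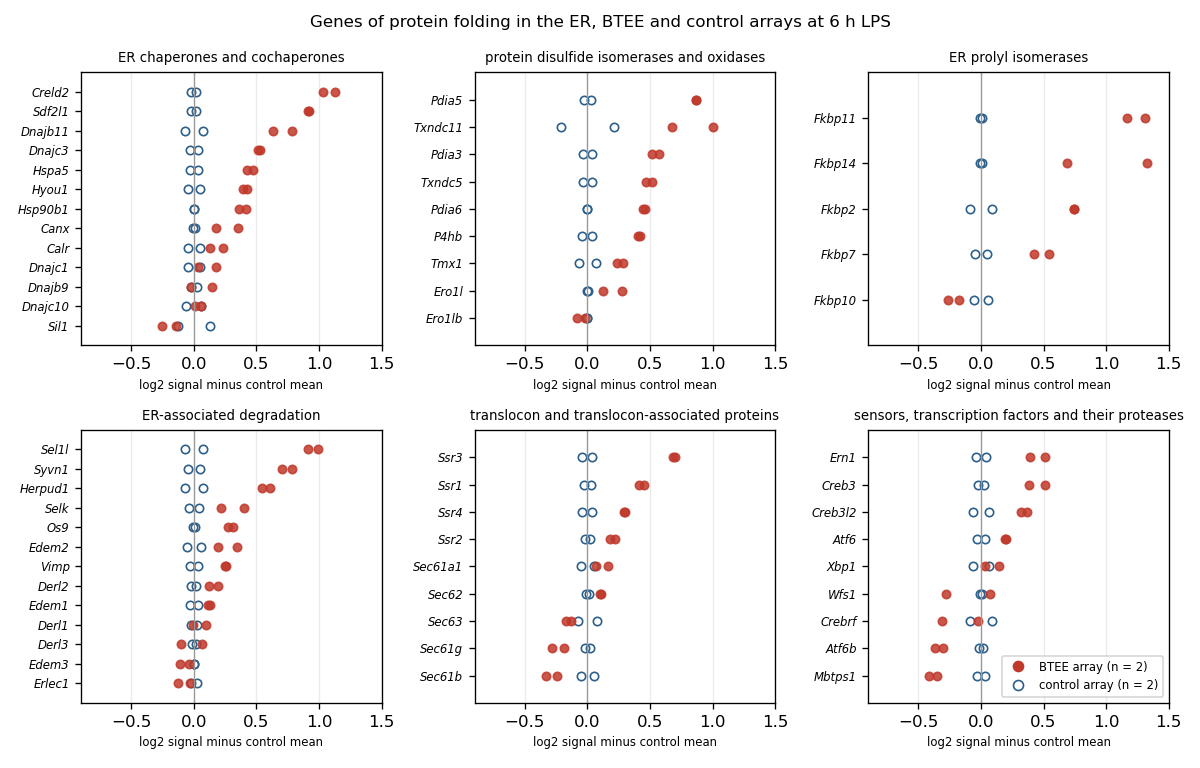
Log2 signal of 58 of the 60 ER genes on each array at 6 h LPS, minus the mean of the 2 control arrays, in 6 panels by role, with filled points for BTEE arrays and open points for control arrays. Chaperones, disulfide isomerases, prolyl isomerases and degradation genes lie mostly to the right of the controls (Creld2 at 1.08, Pdia5 at 0.86), while Sec61b, Sec61g, Atf6b and Mbtps1 lie to the left.

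Enzymes that form disulfide bonds and isomerise prolines in the ER showed the highest shares of genes that rose among the 6 roles, 77.8% and 80.0%. Over all symbols 14.5% rose, and 16.5% of those with a mean signal of at least 6. The rank of the prolyl isomerases rests on 5 genes and was lost without some array. Of 9 disulfide isomerases and oxidases 7 rose and 0 fell, and of 5 prolyl isomerases 4 rose and 0 fell, or 2 to 3 and 0 without any 1 array. At an unadjusted p under 0.05 in limma, 0 and 1 of these were lower, and 2 of the 5 prolyl isomerases had a mean signal of at least 6. Pdia5 read 8.62 and 8.62 with BTEE and 7.78 and 7.73 without, and rose by 0.86 (SE 0.07, adjusted p = 8.33e-04). Pdia3, Pdia6 and P4hb, abundant members of the same family, rose by 0.55, 0.45 and 0.41. Txndc11 read 9.09 and 9.42 with BTEE and 8.20 and 8.63 without. Its duplicates differed more than those of the other isomerases, and it rose by 0.84 with a larger error (SE 0.16, adjusted p = 0.0103). The prolyl isomerase Fkbp11 had the largest rise of the ER list, from 8.71 and 8.73 in control cells to 10.03 and 9.89 with BTEE (log2 fold change 1.24, SE 0.08, adjusted p = 6.01e-04). Fkbp2 rose by 0.74. Fkbp14 rose by 1.01, but with 6.05 and 5.41 on the BTEE arrays its duplicates lay far apart (SE 0.28, adjusted p = 0.0355).

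The route that returns misfolded proteins from the ER to the cytosol for degradation rose in part. Its genes rose in 46.2%, beside 14.5% of all symbols and 16.5% of those with a mean signal of at least 6. Of 13 genes of ER-associated degradation, 6 rose (3 to 4 without any 1 array) and 0 fell, and in limma 0 were lower at an unadjusted p under 0.05. Sel1l and Syvn1 encode the adaptor and the ubiquitin ligase of the same membrane complex. Sel1l read 11.90 and 11.82 with BTEE and 10.83 and 10.98 in control cells, and Syvn1 read 10.70 and 10.62 against 9.96 and 9.87. In both genes the BTEE arrays lay clear of the controls. Sel1l rose by 0.96 (SE 0.09, adjusted p = 9.61e-04), Syvn1 by 0.74 (SE 0.08, adjusted p = 0.00134). Herpud1, which organises that complex, rose by 0.57, and the lectin Os9, which delivers glycoproteins to it, by 0.30. Derl1 had 0.04 (adjusted p = 0.674) and Edem1 0.12 (adjusted p = 0.249).

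Of 9 genes of the translocon, the channel through which new proteins enter the ER, 3 rose and 2 fell, or 2 to 3 and 0 without any 1 array. Translocon genes rose in 33.3% and fell in 22.2%, and so did the sensors, factors and proteases counted below. Of all symbols 14.5% rose and 15.7% fell, and of those with a mean signal of at least 6, 16.5% and 20.3%. Ssr3, Ssr1 and Ssr4, which encode proteins associated with the channel, rose by 0.69, 0.43 and 0.29. Sec61b and Sec61g, small subunits of the channel itself, fell by 0.29 and 0.24 (adjusted p = 0.0353 and 0.0454), and each call was lost whichever of the 4 arrays was left out. Of 9 sensors, transcription factors and their proteases 3 rose (Ern1, Creb3 and Creb3l2) and 2 fell, or 2 to 3 and 0 to 1 without any 1 array. Eif2ak3, the PERK gene, which is counted with the ATF4 list, read 10.36 and 10.30 with BTEE and 9.90 and 9.69 without (log2 fold change 0.54, SE 0.09, adjusted p = 0.00546), and Ern1 read 9.0 and 8.88 against 8.53 and 8.45 (log2 fold change 0.45, SE 0.08, adjusted p = 0.0077). Atf6 read 13.09 and 13.10 against 12.87 and 12.93 and missed the threshold (log2 fold change 0.20, SE 0.07, adjusted p = 0.0665). Xbp1, whose mRNA is spliced by IRE1, overlapped between the groups, with 15.17 and 15.28 against 15.20 and 15.08. The probe set gives the summed signal of the gene, and splicing of Xbp1 was not measured. Mbtps1, a protease that activates ATF6, and the related factor Atf6b fell by 0.38 and 0.33. The call for Mbtps1 was lost without the second BTEE array, and that for Atf6b whichever array was left out.

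Enzymes of N-glycosylation in the ER included some of the same pattern, although the whole list of 90 glycosylation genes had 17 that rose and 18 that fell, or 9 to 12 and 11 to 14 without any 1 array. Ostc, Magt1 and Stt3b, parts of the complex that attaches the glycan to new proteins, rose by 0.62, 0.55 and 0.47. Alg12, a mannosyltransferase that builds the glycan, read 10.59 and 10.57 with BTEE and 9.73 and 9.85 in control cells (log2 fold change 0.79, SE 0.07, adjusted p = 0.001). Alg12 lies at chr15:88805243-88819318 and Creld2 at chr15:88819646-88826681 in GRCm38.p6, the build of the RefSeq annotation used here, so that 0.328 kb separates them. The effect on Alg12 was opposite at 17 h, -0.81 (adjusted p = 0.00127), while Creld2 had 0.15 there (adjusted p = 0.19).

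Fewer ER genes rose at the later time. At 17 h, 16 of the 60 rose and 5 fell, where 14.9% and 13.6% of all symbols did, and the median was 0.07. The effects at both times rest on separate arrays, and their difference passed the test for 29 of the 60, with 21 higher at 6 h and 8 higher at 17 h. Over all symbols the difference passed for 31.4%. Of the 9387 symbols with a mean signal of at least 6, as 55 of the 60 had, it passed for 3806. Of these 1597 were higher and 2209 lower at 6 h than at 17 h. At 17 h 2067 of the 9387 rose and 1570 fell. Syvn1 went from a rise at 6 h to -0.43 at 17 h (difference 1.18, adjusted p = 0.00124), Sel1l to -0.20 and Sdf2l1 to -0.19. Hspa5 had 0.00 at 17 h, and its difference of 0.45 also passed (adjusted p = 0.0143). Fkbp11 kept its size, with 1.27 at 17 h. Sec61g turned from its fall at 6 h to 0.65 at 17 h (adjusted p of the difference = 0.00196).

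**Figure D2:**
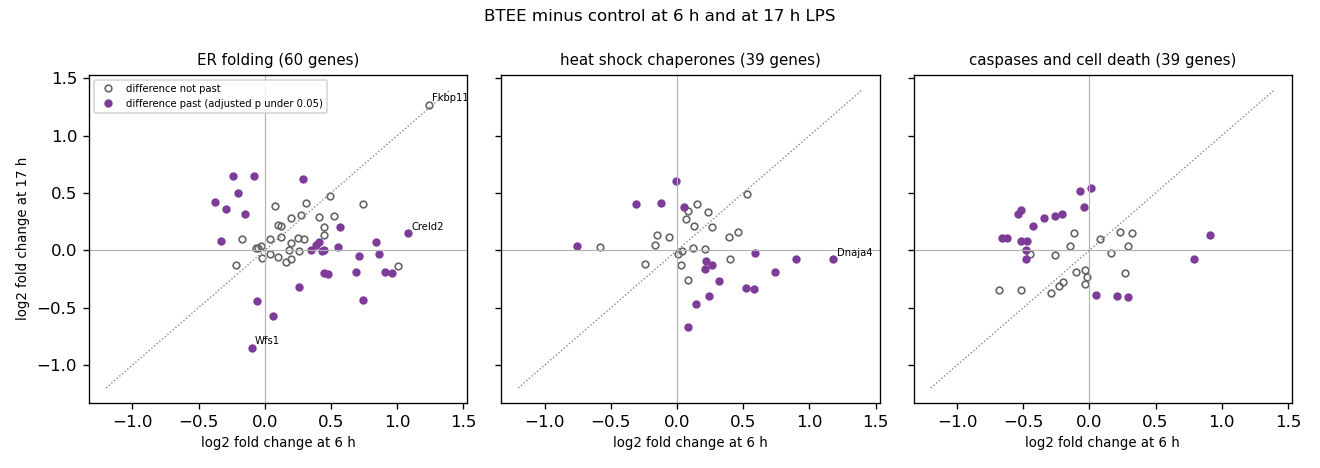
Log2 fold change of BTEE against control at 6 h (horizontal) and 17 h (vertical) for the genes of 3 lists, with filled points where the difference between the times passed an adjusted p of 0.05 and a dotted line of equal change. Fkbp11 lies near the line at 1.24 and 1.27, while Creld2 lies at 1.08 and 0.15.

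ATF4 acts downstream of PERK and of amino acid shortage. Of 50 genes of this integrated stress response 10 rose and 3 fell, beside 14.5% and 15.7% of all symbols, with a median change of 0.06, and without any 1 array 3 to 6 rose and 2 to 3 fell. Atf4 read 14.84 and 14.90 with BTEE and 14.77 and 14.80 without, a difference of 0.09 that did not pass (adjusted p = 0.391). Its classical targets Asns, for asparagine synthesis, and Trib3, a pseudokinase, had 0.12 (adjusted p = 0.236) and 0.25 (adjusted p = 0.07). Ddit3, which encodes the death-associated factor CHOP, read 10.85 and 10.76 against 10.57 and 10.58 and rose by 0.23, close to the threshold (SE 0.07, adjusted p = 0.0445). The members that rose most were Slc6a9, a glycine transporter (0.74), and Psph, the last enzyme of serine synthesis (0.64). Trib3 differed between the times, with -0.95 at 17 h (adjusted p of the difference = 0.00149).

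Cytosolic chaperones shifted upward without Hspa1a, the best known inducible member among those measured. Its relative Hspa1b was listed but was not among the symbols tested, and neither were Dnaja1 and Stub1. Of 39 genes 14 rose and 3 fell, 35.9% and 7.69% beside 14.5% and 15.7% of all symbols, and the median change was 0.14. Without any 1 array, 8 to 10 rose and 1 to 3 fell, and 8 rose and 1 fell in a fit of the 4 arrays of 6 h alone. Hspa1a, the inducible HSP70, read 6.05 and 6.18 with BTEE and 6.01 and 6.16 in control cells, so the groups overlapped (log2 fold change 0.03, adjusted p = 0.841). The constitutive Hspa8 and the regulator Hsf1 had 0.04 and 0.08 and did not pass. Genes that rose were the HSP90 partners Fkbp4 (0.59) and Stip1 (0.39), the HSP70 partner St13 (0.46), Hsp90aa1 (0.22) and the cochaperones Bag2 and Dnajb2 (0.90). Dnaja4, an HSP40 relative with 6.11 and 5.82 against 4.82 and 4.76, had the highest value of the list from a low signal (1.18). Bag2 read 9.56 and 9.40 with BTEE and 8.68 and 8.80 without (log2 fold change 0.74, SE 0.09, adjusted p = 0.00214). Dnajb1, the partner of HSP70 that is usually induced with it, fell from 9.53 and 9.66 to 8.80 and 8.87 (log2 fold change -0.76, SE 0.11, adjusted p = 0.00417). The cytosolic chaperonin and its helpers did not share the direction, since 1 of 17 rose and 4 fell, among them Cct7 (-0.27), Cct8 (-0.24) and the prefoldin gene Pfdn4 (-0.38), and without any 1 array 1 rose and 2 fell.

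**Figure D3:**
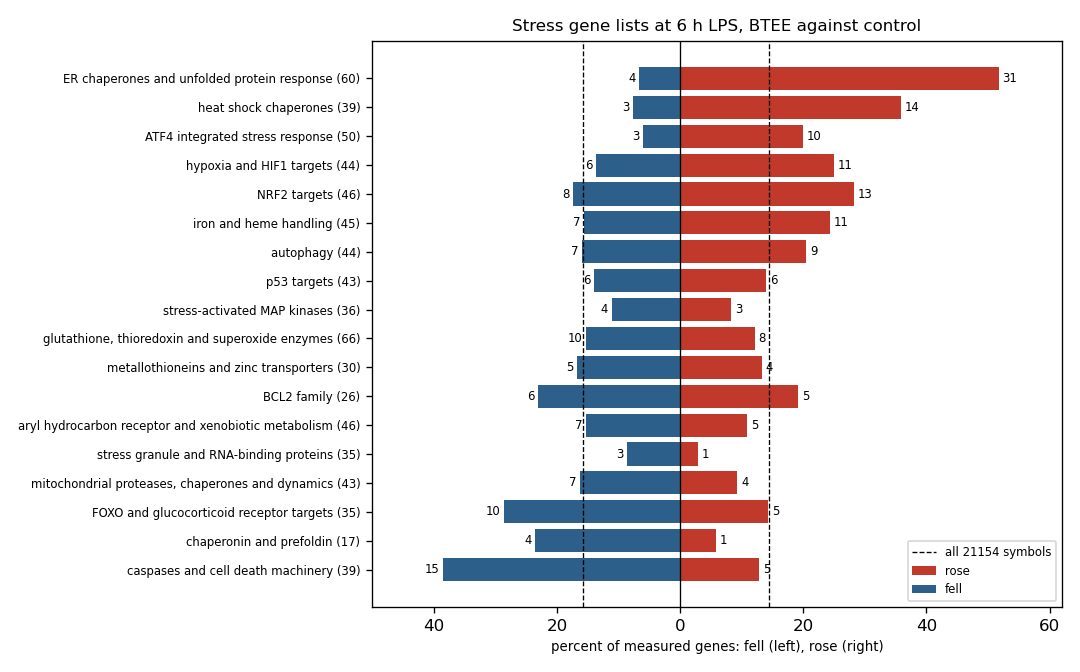
Share of the measured genes of 18 stress lists that rose (right) or fell (left) with BTEE at 6 h LPS, with the number of genes beside each bar, the number measured in parentheses and dashed lines at the shares of all 21154 symbols. ER chaperones reach 51.7% upward and caspases and cell death genes 38.5% downward.

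Several NRF2 target genes rose while the transcripts of NRF2 and its inhibitor fell, where 14.5% of all symbols rose and 15.7% fell. Nfe2l2, which encodes NRF2, read 8.40 and 8.27 with BTEE and 8.83 and 8.65 in control cells (log2 fold change -0.41, SE 0.09, adjusted p = 0.0194). Keap1, its inhibitor, read 10.70 and 10.53 against 11.06 and 11.11 (log2 fold change -0.47, SE 0.10, adjusted p = 0.0162), while its partner Mafg fell by 0.51. Of 46 genes of the NRF2 list 13 rose and 8 fell, with a median of 0.16, and without any 1 array 6 to 9 rose and 1 to 4 fell. Sqstm1, the autophagy receptor p62, read 14.73 on both BTEE arrays and 14.08 and 13.93 in control cells, a clear separation (log2 fold change 0.72, SE 0.08, adjusted p = 0.00173). Blvrb, a biliverdin reductase, rose by 0.63, catalase (Cat) by 0.55, and Hmox1, heme oxygenase 1, by 0.46 from 15.47 on both control arrays to 15.91 and 15.96. Genes of glutathione supply rose by less, with 0.34 for Gclm, 0.32 for the cystine transporter Slc7a11 and 0.30 for the reductase Gsr, while Gclc had 0.20 and Txnrd1 0.17 and did not pass. Nqo1, often used as an NRF2 marker, read between 3.34 and 3.68, near the median of the sensory receptor genes, and was called with a log2 fold change of 0.30 (adjusted p = 0.0364). Catalase had the opposite effect at 17 h, -0.54 (adjusted p of the difference = 0.00116). A wider list of 66 glutathione, thioredoxin and superoxide enzymes was divided, with 8 that rose and 10 that fell, or 5 to 7 of either without any 1 array.

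Heme genes were divided. Of all symbols 14.5% rose and 15.7% fell, and of those with a mean signal of at least 6, 16.5% and 20.3%. The iron and heme list had 24.4% and 15.6%. Of 45 genes of iron and heme handling 11 rose and 7 fell, or 7 to 9 and 2 to 4 without any 1 array. Alas1, the first enzyme of heme synthesis, rose by 0.57, the heme transporter Slc48a1 by 0.48, Cpox, a later enzyme of synthesis, by 0.40 and Hmox2 by 0.32. Urod, an enzyme between them in the pathway, fell by 0.54, the mitochondrial iron importer Slc25a28 by 0.60 and the iron-sensing gene Hfe by 0.53. The ferritin genes Fth1 and Ftl1 had 0.22 and 0.23 and did not pass (adjusted p = 0.0769 and 0.0626). Mt1, a metallothionein that binds zinc and copper, read 18.05 and 18.02 against 17.71 on both control arrays and rose by 0.32 (SE 0.07, adjusted p = 0.0114), while Mt2 overlapped between the groups (0.04, adjusted p = 0.732).

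Of 39 genes of caspases and the death machinery 15 fell, 5 rose and 19 did not pass. These shares of 38.5% and 12.8% stood beside 15.7% and 14.5% of all symbols and 20.3% and 16.5% of those with a mean signal of at least 6, with a median change of -0.15, and without any 1 array 9 to 10 fell and 1 to 3 rose. The death receptor Fas read 10.79 and 10.73 with BTEE and 11.38 and 11.51 without (log2 fold change -0.68, SE 0.08, adjusted p = 0.00237). Tnfrsf1a, a receptor for TNF, read 12.47 and 12.49 against 13.13 and 13.06 (log2 fold change -0.62, SE 0.07, adjusted p = 0.00197). Pyroptosis, the lytic death of macrophages by inflammatory caspases, uses gasdermin D. Its gene Gsdmd read 12.73 on both BTEE arrays and 13.40 and 13.38 in control cells, among the tightest separations of the list (log2 fold change -0.66, SE 0.07, adjusted p = 0.00129). The inflammatory caspases Casp1 and Casp4 fell by 0.54 and 0.52 and Mlkl, which lyses cells in necroptosis, by 0.48. Casp8 did not pass, with 0.05 (adjusted p = 0.585). The adaptor Tradd went the other way, from 8.53 and 8.63 to 9.58 and 9.40 (log2 fold change 0.91, SE 0.09, adjusted p = 0.00118), as did the kinases Ripk3 (0.32) and Ripk1 (0.29). At 17 h 7 genes of this list fell and 7 rose, where 13.6% and 14.9% of all symbols did. The difference passed for 20, of which 15 were lower at 6 h, and Casp1 and Casp4 rose at 17 h, by 0.32 and 0.35. Among all symbols 31.4% passed the test of the difference. Of the 9387 with a mean signal of at least 6, 3806 passed, of which 2209 were lower at 6 h.

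The BCL2 family and p53 targets did not follow a common direction. Of 26 BCL2 family genes 6 fell and 5 rose, or 2 to 3 of either without any 1 array, with Bcl2a1a (-0.40) and Bcl2l11, which encodes BIM (-0.37), among those that fell. Bcl2a1a has near-identical copies such as Bcl2a1d, and the array may not separate them. Mcl1 and Bcl2l1 each had -0.15 and did not pass. Of 43 p53 targets 6 rose and 6 fell, or 2 to 6 and 5 to 7 without any 1 array. Trp53 (0.06), Mdm2 (0.00), Cdkn1a (-0.13) and Bax (0.17) all missed the threshold, with adjusted p-values of 0.634, 1.0, 0.194 and 0.119. Pmaip1, which encodes the death activator NOXA, rose by 0.72 and the receptor gene Eda2r fell by 0.68.

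**Figure D4:**
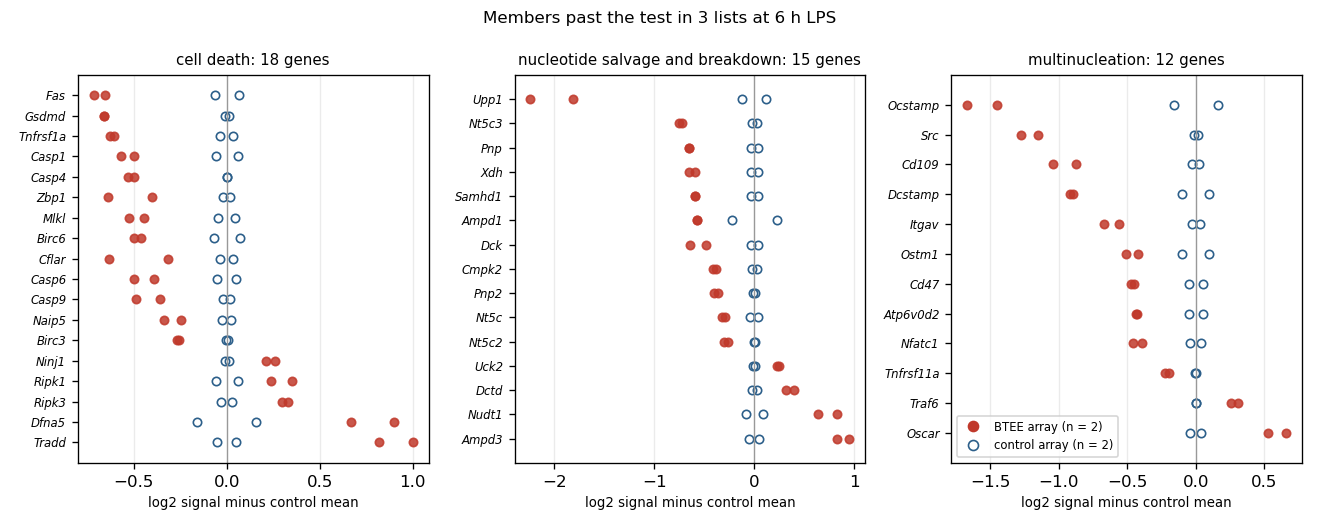
Log2 signal on each array at 6 h LPS, minus the mean of the 2 control arrays, for genes past the test in the lists of cell death (18 of 20 genes shown), nucleotide salvage and breakdown (15) and multinucleation (12). Filled points are BTEE arrays and open points control arrays. Upp1 lies at -2.02, with BTEE signals near the upper range of the sensory receptor genes, Ocstamp at -1.56 and Tradd at 0.91.

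Other stress programs moved gene by gene, where 14.5% of all symbols rose and 15.7% fell. Of 44 hypoxia genes 11 rose and 6 fell, or 3 to 7 and 4 to 5 without any 1 array. Hif1a read 13.89 and 13.90 with BTEE and 13.83 and 13.86 without, and neither it (0.05, adjusted p = 0.597) nor Vegfa (0.14, adjusted p = 0.25) passed. The sterol regulator Insig2 rose by 0.69, and the glycolytic gene Tpi1 and the kinase gene Pdk1, which limits pyruvate entry into mitochondria, each by 0.48, while Mif, a cytokine, fell by 0.59 and the HIF ubiquitin ligase gene Vhl by 0.52. Of 36 genes of stress-activated MAP kinases 3 rose and 4 fell, or 1 and 2 to 4 without any 1 array, and the largest fall was that of Mapkapk2, the kinase that stabilises cytokine mRNA downstream of p38. It read 11.11 and 11.13 with BTEE, below both control arrays, whose mean was 11.97 (log2 fold change -0.85, SE 0.07, adjusted p = 8.33e-04), and had 0.60 at 17 h, with a difference of -1.45 between the times (adjusted p = 8.52e-04). Gadd45b fell by 0.54. Targets of FOXO factors and the glucocorticoid receptor, which slow growth and inflammation, fell in 10 of 35 and rose in 5, or in 7 to 9 and 1 to 2 without any 1 array. Those shares were 28.6% and 14.3%. Genes that fell included the cyclin Ccng2 (-0.82), the phosphatase Dusp1 (-0.65), the kinase Sgk3 (-0.64) and Klf6 (-0.59).

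Of 44 autophagy genes 9 rose and 7 fell, or 6 to 7 and 0 to 4 without any 1 array, and Map1lc3b had 0.02 (adjusted p = 0.854). Atg16l2, a homologue of the autophagy scaffold ATG16L1, rose from 7.53 and 7.65 to 9.02 and 8.97, and of all 710 genes on the 18 stress lists it was the 1 that passed with the sensory gene spread included (log2 fold change 1.41, SE 0.09, adjusted p = 6.29e-04, and 0.0178 with that spread). Of 43 genes of mitochondrial proteases and dynamics 4 rose and 7 fell, or 2 to 3 and 3 to 5 without any 1 array, with the fusion gene Mfn2 at -0.65 and the protease gene Spg7 at -0.68. Of 35 stress granule genes 1 rose and 3 fell, 2.86% and 8.57% beside 14.5% and 15.7% of all symbols, or 0 to 1 and 1 to 2 without any 1 array. Of 46 genes of the aryl hydrocarbon receptor and xenobiotic metabolism 5 rose and 7 fell, or 2 to 4 and 3 to 6 without any 1 array. Ahr had 0.31 (adjusted p = 0.158) near the floor of the array, and its target Tiparp fell by 0.26. Of 30 metallothionein and zinc transporter genes 4 rose and 5 fell, or 1 to 3 and 2 without any 1 array.

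Outside the stress programs, the genes that passed the test were mostly higher for the making of nucleotides and mostly lower for their reuse and breakdown. Of 20 genes for synthesis of purines and pyrimidines 8 rose and 0 fell. The share of 40.0% upward stood beside 14.5% of all symbols and 16.5% of those with a mean signal of at least 6. Their median change was 0.23. Both BTEE arrays lay above both control arrays for 15 and below them for 1, beside 32.8% and 34.5% of all symbols. Without any 1 array 4 to 7 rose and 0 fell. Limma's unadjusted p was under 0.05 for 10 that were higher and 0 that were lower. Dhodh, the mitochondrial enzyme of pyrimidine synthesis, read 9.37 and 9.24 with BTEE and 8.60 and 8.45 without (log2 fold change 0.78, SE 0.10, adjusted p = 0.00239). Gmps, for GMP synthesis, rose by 0.44, Paics, for purine ring synthesis, by 0.36, and Cad, which starts pyrimidine synthesis, by 0.34. Impdh2 (0.06, adjusted p = 0.56), Umps (0.27, adjusted p = 0.0787) and Ppat (0.16, adjusted p = 0.212) did not pass. The list of serine, folate and methionine metabolism, which supplies carbon for purines, had 10 of 34 that rose and 4 that fell, or 4 to 6 and 0 to 1 without any 1 array, with the folate enzyme Mthfd2l at 0.65 and the mitochondrial serine enzyme Shmt2 at 0.35.

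Genes of nucleotide salvage and breakdown fell in 11 of 40 and rose in 4, or in 8 to 9 and 1 to 3 without any 1 array. Those shares were 27.5% and 10.0%, beside 15.7% and 14.5% of all symbols. Upp1, uridine phosphorylase, which splits uridine, fell from 7.09 and 7.33 in control cells to 4.97 and 5.40 with BTEE. The BTEE arrays thus lay on either side of 5.08, a signal that 5% of the sensory receptor genes exceeded. At that level part of the signal may be that of genes not expressed, and the measured difference may then understate the fall. It was -2.02 (SE 0.16, adjusted p = 8.28e-04, and 1.62e-04 with the sensory gene spread). Pnp, purine nucleoside phosphorylase, read 13.93 on both BTEE arrays and 14.62 and 14.55 without (log2 fold change -0.66, SE 0.07, adjusted p = 0.00154). The purine oxidase gene Xdh fell by 0.62, the nucleotidase gene Nt5c3 by 0.74, Samhd1, which degrades deoxynucleotides, by 0.59 and the kinase gene Dck by 0.57. Ampd3, which deaminates AMP, rose from 10.16 and 10.06 to 10.94 and 11.06 (log2 fold change 0.89, SE 0.08, adjusted p = 8.98e-04). Of 33 purinergic and adenosine receptors and ectonucleotidases 7 fell and 6 rose, or 6 to 8 and 2 to 5 without any 1 array, with a median change of 0.06. P2rx4, a channel opened by ATP, fell from 10.70 and 10.63 to 9.81 and 9.69 (log2 fold change -0.91, SE 0.08, adjusted p = 8.65e-04), Adora2b, an adenosine receptor, fell by 0.72, P2rx6 rose by 0.80 (adjusted p = 0.0032) and P2rx7 had -0.07 (adjusted p = 0.502).

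Genes for macrophage fusion were among those that fell. Over all symbols 15.7% fell and 14.5% rose, and of those with a mean signal of at least 6, 20.3% and 16.5%. Of 31 genes of multinucleation and osteoclasts 10 fell and 2 rose, 32.3% and 6.45%, with a median of -0.17, or 8 to 9 and 0 to 1 without any 1 array. Ocstamp and Dcstamp encode related membrane proteins needed for fusion. Ocstamp read 6.48 and 6.70 with BTEE and 7.99 and 8.31 in control cells (log2 fold change -1.56, SE 0.12, adjusted p = 8.33e-04, and 0.0066 with the sensory gene spread). Dcstamp read 9.92 and 9.94 against 10.94 and 10.74 (log2 fold change -0.91, SE 0.10, adjusted p = 0.00154). Neither gene's groups overlapped, and Dcstamp was lower at 17 h too (-0.80, adjusted p = 0.00255), while Ocstamp had -0.08 there (adjusted p of the difference = 0.0021). Src, a kinase that osteoclasts need to resorb bone, read 8.68 and 8.80 against 9.94 and 9.97 (log2 fold change -1.22, SE 0.07, adjusted p = 6.01e-04). Itgav, an integrin subunit of osteoclasts, fell by 0.62 and Nfatc1, the main transcription factor of osteoclast formation, by 0.43, with 0.68 at 17 h (adjusted p of the difference = 0.00139). The resorption genes Acp5 (-0.18, adjusted p = 0.085) and Ctsk (-0.04, adjusted p = 0.767) did not pass.

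Complement and phagocytic receptor genes fell in 18 of 51 and rose in 3, 35.3% and 5.88%, and without any 1 array 13 to 15 fell and 3 rose. The share of all symbols was 15.7% that fell and 14.5% that rose. With a mean signal of at least 6 it was 20.3% and 16.5%. Cfb, complement factor B, read 7.40 and 7.56 with BTEE and 8.67 and 8.92 in control cells (log2 fold change -1.31, SE 0.11, adjusted p = 8.65e-04). Cd46, a complement regulator, fell by 1.12 and the complement receptor subunit Itgax by 1.03. Xkr8, the scramblase that exposes phosphatidylserine on dying cells, fell by 0.75. Havcr2, which encodes the phosphatidylserine receptor TIM-3, rose by 0.72 and had -0.56 at 17 h. C1qa read between 2.84 and 3.23, below the median of the sensory receptor genes, and was called with -0.35 (adjusted p = 0.0287). These counts lay beside a fall of 8 of 19 macrophage markers, of which Cd36 and Itgam are on both lists, and the part of that fall in these counts was not tested.

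Genes of the actin skeleton went in both directions. Of 98 actin and focal adhesion genes 22 fell and 15 rose, 22.4% and 15.3%, beside 15.7% and 14.5% of all symbols and 20.3% and 16.5% of those with a mean signal of at least 6, and without any 1 array 14 to 17 fell and 3 to 6 rose. Diaph1, a formin that grows actin filaments, read 10.56 and 10.50 with BTEE and 11.64 and 11.65 without (log2 fold change -1.11, SE 0.07, adjusted p = 6.54e-04). The formin gene Diaph3 fell by 0.75, the adhesion gene Zyx by 0.82, Evl by 0.71, the crosslinker Actn1 by 0.69 and the motor Myh9 by 0.66. Limk1, a kinase that slows the severing of actin filaments, and Fermt3, an integrin activator, rose by 0.39 and 0.32. Actb itself read 18.74 and 18.61 against 18.60 and 18.58 (0.09, adjusted p = 0.424). Genes of the response to serum and growth factors fell in 16 of 59 and rose in 4, or in 10 to 11 and 1 to 3 without any 1 array. Myc, a regulator of growth, read 13.09 and 13.12 against 13.83 and 13.91 (log2 fold change -0.76, SE 0.07, adjusted p = 0.00105), and Jund fell by 0.71, while Fos had -0.11 (adjusted p = 0.512).

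At the nuclear envelope 1 gene stood far from the rest. Lbr, the lamin B receptor, which ties chromatin to the inner nuclear membrane and also carries a sterol reductase, read 11.67 and 11.77 with BTEE and 13.55 and 13.57 in control cells. It had a log2 fold change of -1.84 at 6 h (SE 0.07, adjusted p = 6.01e-04, and 8.68e-05 with the sensory gene spread) and 0.65 at 17 h, the widest difference between the times among the genes named here (-2.49, adjusted p = 8.52e-04). Its partner Lmnb1, lamin B1, rose by 0.79 and Lemd2, another inner membrane gene, by 0.88. Lamina, envelope and pore genes rose in 20.6% and fell in 19.0%, nuclear receptors and coregulators in 12.3% and 19.3%. Of all symbols 14.5% rose and 15.7% fell, and of those with a mean signal of at least 6, 16.5% and 20.3%. Of the whole list of 63 genes of lamina, envelope and pore 13 rose and 12 fell, or 4 to 6 and 4 to 8 without any 1 array. Among nuclear receptors and coregulators, where 7 of 57 rose and 11 fell (4 to 6 and 7 to 8 without any 1 array), Rarg, a retinoic acid receptor, read 10.39 and 10.34 against 9.07 and 9.11 (log2 fold change 1.27, SE 0.10, adjusted p = 8.33e-04), the corepressor Nrip1 rose by 1.07, while the coactivator Ncoa1 fell by 1.11.

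Among genes outside these lists, the largest falls with a mean signal of at least 6 were those of Ifit1bl1 (-2.52), an interferon-inducible gene, and Adap2 (-2.19), a regulator of ARF GTPases. Ifit1bl1 read 8.38 and 7.97 with BTEE and 10.71 and 10.69 without, and Adap2 read 7.25 and 7.08 against 9.28 and 9.42. The chemokine Ccl17 fell by 1.92 from 12.30 and 12.24 to 10.62 and 10.08, and the chemokine receptor Ccr3 fell by 1.78. The acetyltransferase gene Kat2b fell by 1.74, the fatty acid desaturase gene Scd1 by 1.51, and the receptor tyrosine kinase gene Axl by 1.5, the last with a like fall at 17 h (-1.60). Of the 12 largest rises, Gm10198, Gm17428, Gm11172, Gm11034 and 6430503K07Rik carry only provisional names. Itgb7, an integrin subunit, read 8.15 and 8.09 with BTEE and 6.42 and 6.60 in control cells (log2 fold change 1.61, SE 0.13, adjusted p = 8.33e-04). Itgb7 lies at chr15:102215994-102233405 and Rarg at chr15:102234938-102257522 in GRCm38.p6, 1.53 kb apart, and both had -0.38 at 17 h. The zinc finger gene Zfp69 rose by 1.72, Gkap1, an anchor of a cGMP-dependent kinase, by 1.45, and the ubiquitin ligase gene Trim59 by 1.42. The histone genes labelled Hist1h2br and Hist1h2bj rose by 1.57 and 1.56. The RefSeq table lists Hist1h2br as an older name of H4bc24, so which histone that probe set measures is unsettled, and Hist1h2bj is near-identical in coding sequence to other H2B genes, which the array may not separate.

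**Figure D5:**
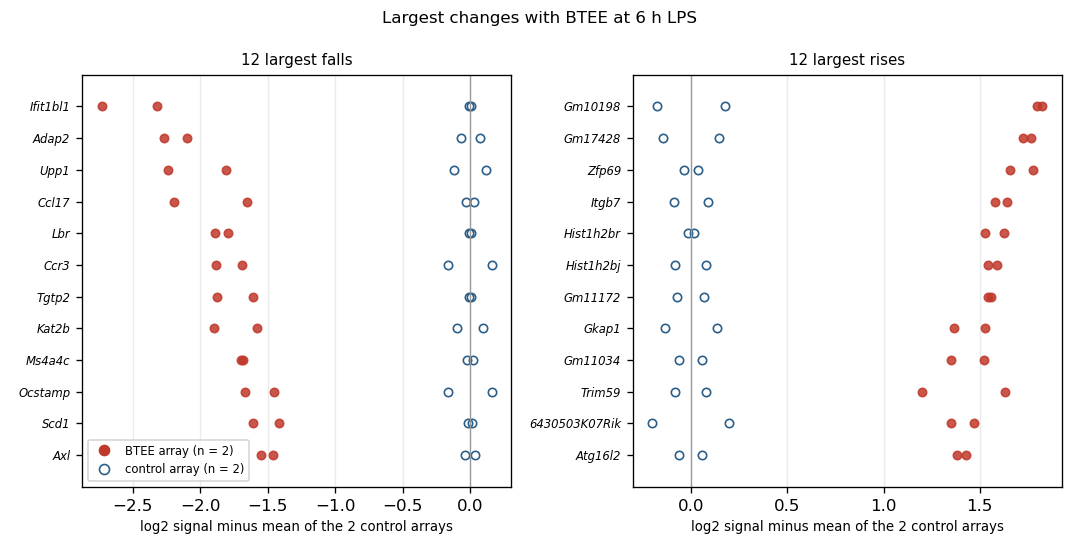
Log2 signal on each array at 6 h LPS, minus the mean of the 2 control arrays, for the 12 largest falls (left) and the 12 largest rises (right) among genes with a mean signal of at least 6. Filled points are BTEE arrays and open points control arrays. Only genes past the test, with a fold over 1.5 and groups that did not overlap, could be picked. The falls run from Axl at -1.5 to Ifit1bl1 at -2.52 and the rises from Atg16l2 at 1.41 to Gm10198 at 1.81.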

How the data were processed

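Per the labels and the study's methods, total RNA was hybridised to Clariom S mouse arrays, and the authors deposited log2 signals made by signal space transformation and robust multi-array averaging (SST-RMA) in the Transcriptome Analysis Console. Normalization to a common distribution assumes that most genes are unchanged, and the transformation was designed to widen the fold changes that plain averaging compresses. These values were used as deposited. A second deposited table holds group averages with the authors' fold changes, p-values and false discovery rates, which were not used. Its averages lay within 0.005 of means over the arrays.

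Of 22206 probe sets, 836 listed several symbols and 3 none, and were left out, as were 213 with a lower signal than another of the same gene, which left 21154 symbols. Names and coordinates came from a RefSeq table (GRCm38.p6), in which 19689 symbols matched directly and 858 as older names. One mean per group was fitted to all 8 arrays with limma 3.58.1 (lmFit, eBayes) in R 4.3.3, and p-values were adjusted over all symbols. On simulated data for this comparison, of 50 genes planted at each fold 54% were recovered at 1.5-fold, 88% at 2-fold, 92% at 3-fold and 100% at 4-fold. Far fewer genes changed in the simulation than were called in the data, and the sensory gene spread was left out. The rates may therefore differ from those in the data. Replicate numbers were not treated as pairs, since deviations from the group means correlated with r = 0.02 at 6 h and 0.009 at 17 h. The number of arrays limits the precision.

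The members and gene lists were chosen with earlier results of these data known. The genes named included the 12 largest changes each way with a mean signal of at least 6. These were taken from called genes with a fold over 1.5 whose groups did not overlap. Also named were up to 6 called genes of each list and the known key genes of each program. Other list members were added to show roles after their values were seen. Alternatives were another normalization, centring, probe set and signal rules, the 6 h arrays alone, other variance priors, thresholds, a block for replicate number, each array left out, and the spread of sensory receptor genes added to the error. Some items are not reported here.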

Additional observations from a re-analysis of the deposited data

Results flagged for a closer look

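The effect of BTEE differed between 6 h and 17 h of LPS for 6651 of 21154 symbols by limma's test of the difference, and for 33 when the sensory gene spread was included. Of the genes named, 12 passed in the second way. Lbr, the lamin B receptor, had -1.84 at 6 h and 0.65 at 17 h on the log2 scale, a difference of -2.49. Adap2, an ARF regulator, had -2.19 and 0.03, a difference of -2.21. Ifit1bl1, an interferon-inducible gene, had -2.52 and -0.37, a difference of -2.15. Kat2b, an acetyltransferase gene, had -1.74 and 0.34, a difference of -2.08. The effects of Adap2, Ifit1bl1 and Kat2b at 17 h did not pass in limma (adjusted p = 0.849, 0.0849 and 0.12).

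The other 8 were higher at 6 h. Atg16l2, the autophagy-related gene, had 1.41 at 6 h and -0.67 at 17 h, a difference of 2.08. Itgb7, an integrin gene, had 1.61 and -0.38, a difference of 1.99, and its 17 h effect did not pass in limma (adjusted p = 0.0686). The zinc finger gene Zfp664 had 0.86 and -1.05, a difference of 1.92. Gene models without an assigned function made up the rest. Gm17428 had 1.75 and -0.60, a difference of 2.35. The differences were 2.10 for 6430503K07Rik, 2.06 for Gm10198, 2.04 for Gm11034 and 1.98 for Gm11172, each of which rose at 6 h. Of these 4, Gm10198 had -0.26 at 17 h, which did not pass, and the others fell by 0.69, 0.60 and 0.43 in the order 6430503K07Rik, Gm11034 and Gm11172.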

How the results depend on the processing

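With the sensory gene spread included in the error, 52 symbols passed (30 lower, 22 higher) in place of 6380, DEGs numbered 1439 (739 lower, 700 higher) in place of 2204, and the difference between the times passed for 33 in place of 6651. Leaving out 1 of the 4 arrays gave 3555 to 3953 symbols, of which 1836 to 2107 fell and 1719 to 1846 rose. With a mean signal of at least 6 the DEGs numbered 921 (512 lower, 409 higher), with a fold over 2 they numbered 290 (152 lower, 138 higher), and limma's test against a 1.5-fold change gave 90 (49 lower, 41 higher). With the replicate number as a block, 2688 fell and 2422 rose, although the deviations gave no sign that equal numbers pair the arrays. The other alternatives kept these counts within 1.5-fold.

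Of 518 genes examined singly, 397 were called, 133 of these lost the call without some array, 39 with the block and 371 with the sensory gene spread. When probe sets of 1 gene were averaged, Egln3 went from -0.515 to 0.005 and Nsun2 from 0.350 to -0.003, and the cause was not tested. No other of the 397 changed direction in any alternative run.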

Other observations

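Further gene groups showed the following at 6 h, where 15.7% of all symbols fell and 14.5% rose. Of those with a mean signal of at least 6, 20.3% fell and 16.5% rose. Of V-ATPase subunits 29.2% fell, of sphingolipid genes 26.0% and of tetraspanins 27.6%. Of receptors for chemoattractants and metabolites 21.7% fell and of calcium genes 21.8%, both close in size to that 20.3%. Only 20 of the 60 receptors had such a signal, and 6 of these fell, as did 10 of the 38 such calcium genes. The shares that rose were 12.5%, 10.0%, 6.9%, 5.0% and 9.09% in the same order. Of 24 subunits of the V-ATPase, the proton pump of lysosomes, 7 fell and 3 rose (4 to 6 and 1 to 2 without any 1 array), with Atp6v1f at -0.72 and Atp6v1b2 at -0.66. Of 50 genes of sphingolipid metabolism 13 fell and 5 rose (4 to 5 and 1 to 2 without any 1 array). Of 60 receptors for chemoattractants and metabolites, many of them dim, 13 fell and 3 rose (6 to 11 and 2 to 3 without any 1 array), among them Cysltr1, a leukotriene receptor, at -0.77 and Hcar2, a receptor for niacin, at -0.54. Of 29 tetraspanins 8 fell and 2 rose (4 to 6 and 1 to 2 without any 1 array), with Tspan13 at -0.86 and the macrophage-expressed Cd53 and Cd63 at -0.46 and -0.41.

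Sema4d, a semaphorin of immune cells, read 12.12 and 12.14 with BTEE and 13.21 on both control arrays (log2 fold change -1.08, SE 0.10, adjusted p = 0.00111), and Sema4c had -1.07. Of 55 calcium genes 12 fell and 5 rose (5 to 7 and 2 to 5 without any 1 array), with the calcium release channel Itpr1 at -0.84 and the entry channel Orai1 at -0.54, while Plcg1, a phospholipase that acts upstream of them, rose by 0.95. Slc25a22, the mitochondrial glutamate carrier, read 10.20 and 10.18 against 11.64 and 11.58 and fell by 1.42, a fall that passed with the sensory gene spread included (adjusted p = 0.0177). In arginine metabolism Nos2, the inducible nitric oxide synthase, fell by 0.57 and Oat, ornithine aminotransferase, rose by 0.79. Of 355 zinc finger genes named Zfp 72 rose and 50 fell, 20.3% and 14.1% beside 14.5% and 15.7% of all symbols. Of the 218 with a mean signal of at least 6, 42 rose and 34 fell, where 16.5% and 20.3% of all such symbols did.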
